A study of Danio rerio with 20 samples.

Results

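The nuclear-encoded subunits of respiratory complexes II to V were taken as the genes whose symbol starts with sdha, sdhb, sdhc, sdhd, uqcr, cyc1, cox4 to cox8 or atp5, which gave 45 of the 9368 genes listed. They comprised 8 genes of complex II, 8 of complex III, 15 of complex IV and 14 of complex V. The complex II set includes the assembly factors sdhaf2, sdhaf3 and sdhaf4, whose symbols begin with the same letters. All sets were assigned by symbol alone, and whether each gene encodes a subunit was not checked. RefSeq now names atp5s as dmac2l and cox7a3 as cox7a2l. Subunits encoded by mitochondrial DNA were not analysed here.

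Whole zebrafish embryos of the AB strain were exposed to pH-neutralized hexafluoropropylene oxide-dimer acid (HFPO-DA, sold as GenX, a short-chain replacement for perfluorooctanoic acid) from the sphere stage, and RNA was collected at 72 h post-fertilization (hpf). The groups were embryo water alone (control, 3 pools) and 4 concentrations of HFPO-DA in mg/L (0.5, 1, 2 and then 10, with 4 pools each), with 8 to 10 embryos per pool. All pools came from offspring of the same adult strain, and pools of a group are called a to d. A control pool d, labelled an outlier by the submitters, was not analysed here. The 19 pools held between 104350 and 581494 reads after removal of duplicates by molecular identifiers, and every marker list of muscle, heart, eye, nerve, skin, liver and blood had reads in each pool.

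Complex II (succinate dehydrogenase) passes electrons from succinate to coenzyme Q, complex III passes them on to cytochrome c, and complex IV uses them to reduce oxygen to water. The proton gradient built by the chain drives complex V, the ATP synthase. Complexes III, IV and V join nuclear-encoded subunits with subunits made inside the mitochondrion, whereas all subunits of complex II are nuclear-encoded. Swimming muscle and heart of the larva hold many mitochondria, and several subunits exist as paralogs that differ between tissues in mammals.

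None of these genes passed the test for a change with exposure. Of 43 genes with enough reads to test, 0 passed an adjusted p of 0.1 (limma on log2 values, Benjamini-Hochberg over 6933 genes) at 0.5, 1, 2 or 10 mg/L, in the mean of the 4 exposures against control, or among the 4 exposures. Over all genes tested, the share that passed was 0.0%, 0.0%, 0.0144% and 0.0144% from the lowest to the highest concentration, 0.0% for the mean of the exposures and 0.0% among the exposures. edgeR and DESeq2 on the recovered reads also called 0 of the 43 genes in each of these comparisons. At 0.5 mg/L, a limma fit with the pool letters as a block called 2 of the 43 genes, against 29 of the 6933 tested. Leaving out control pool a at that concentration called 1, against 46 of 6933. The smallest adjusted p of a gene of these complexes was 0.786, 0.998, 0.912 and 0.967 in the same order of concentrations and 0.980 for the mean of the exposures.

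The other 2 genes were too sparse to test. atp5g3b, one of the genes for the c-ring subunit of ATP synthase, had 1 read over all pools and 0 reads in the control pools. sdhda, a paralog of the membrane anchor sdhdb, had 12 reads, 9 of them in the exposed pools and 3 in the control pools, and no read in 11 pools.

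At an unadjusted p under 0.05, 3 of 43 genes were higher in the 0.5 mg/L pools (against 2.68% of all genes tested), 0 in the 1 mg/L pools (1.69%), 1 in the 2 mg/L pools (2.05%), 1 in the 10 mg/L pools (1.85%) and 2 in the mean of the exposures (2.42%). At the same level, 0 of 43 were lower in any of these comparisons, against 3.52%, 2.28%, 2.8% and 2.37% of all genes from the lowest to the highest concentration and 2.34% in the mean of the exposures. The genes behind these counts were cyc1, atp5f1 and atp5j2 at 0.5 mg/L, cox5ab at 2 mg/L, atp5f1 at 10 mg/L, and atp5f1 and atp5j2 in the mean of the exposures. Among the 4 exposures, 2 genes, sdhb and cyc1, reached that level, against 4.47% of all genes. These counts depended on the scaling: with each pool rescaled to the same sum, 1 gene (atp5j2) was higher at 0.5 mg/L, 0 at the other concentrations, and 0 were higher and 1 (atp5g1) lower in the mean of the exposures.

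The point estimates leaned upward at 3 of the 4 concentrations. At 0.5 mg/L, 32 of 43 genes had a log2 difference above 0, against 44.0% of all genes tested, and their median was 0.11. At 1 mg/L, 19 were above 0, against 46.1%, with a median of -0.05. At 2 mg/L, 35 were above 0, against 45.9%, with a median of 0.15, and at 10 mg/L, 29 were above 0, against 45.3%, with a median of 0.07. In the mean of the exposures, 27 of 43 were above 0, against 43.2%, with a median of 0.08. The medians of all genes tested were -0.06, -0.04, -0.04 and -0.04 from the lowest to the highest concentration, and -0.05 for the mean. The 4 comparisons share the same 3 control pools, so a control pool that stands apart enters all of them.

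Control pool b was the lowest control pool in 35 of the 43 genes (81.4%), whereas it was lowest in 34.0% of all genes tested. Without it, the median log2 difference of the 43 genes was -0.02, -0.18, 0.01 and -0.06 from the lowest to the highest concentration and -0.05 in the mean of the exposures, where 15 of 43 genes were above 0 and the median of all genes was -0.06. Without control pool a, which was the highest control pool in 29 of 43 genes, the median in the mean of the exposures was 0.20 and 35 genes were above 0. The sign of the median thus depended on which control pools were used. The counts at an unadjusted p under 0.05 moved as well. At 0.5 mg/L without control pool a, 10 of 43 genes were higher and 0 lower, against 618 of 6933 tested in either direction. Without control pool b, 0 of 43 were higher and 1 lower, against 269 of 6933 in either direction. At 2 mg/L without control pool a, 10 of 43 were higher and 0 lower, against 549 of 6933 in either direction. At 1 mg/L without control pool b, 0 of 43 genes were higher and 5 lower, against 239 of 6933 in either direction.

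**Figure D1:**
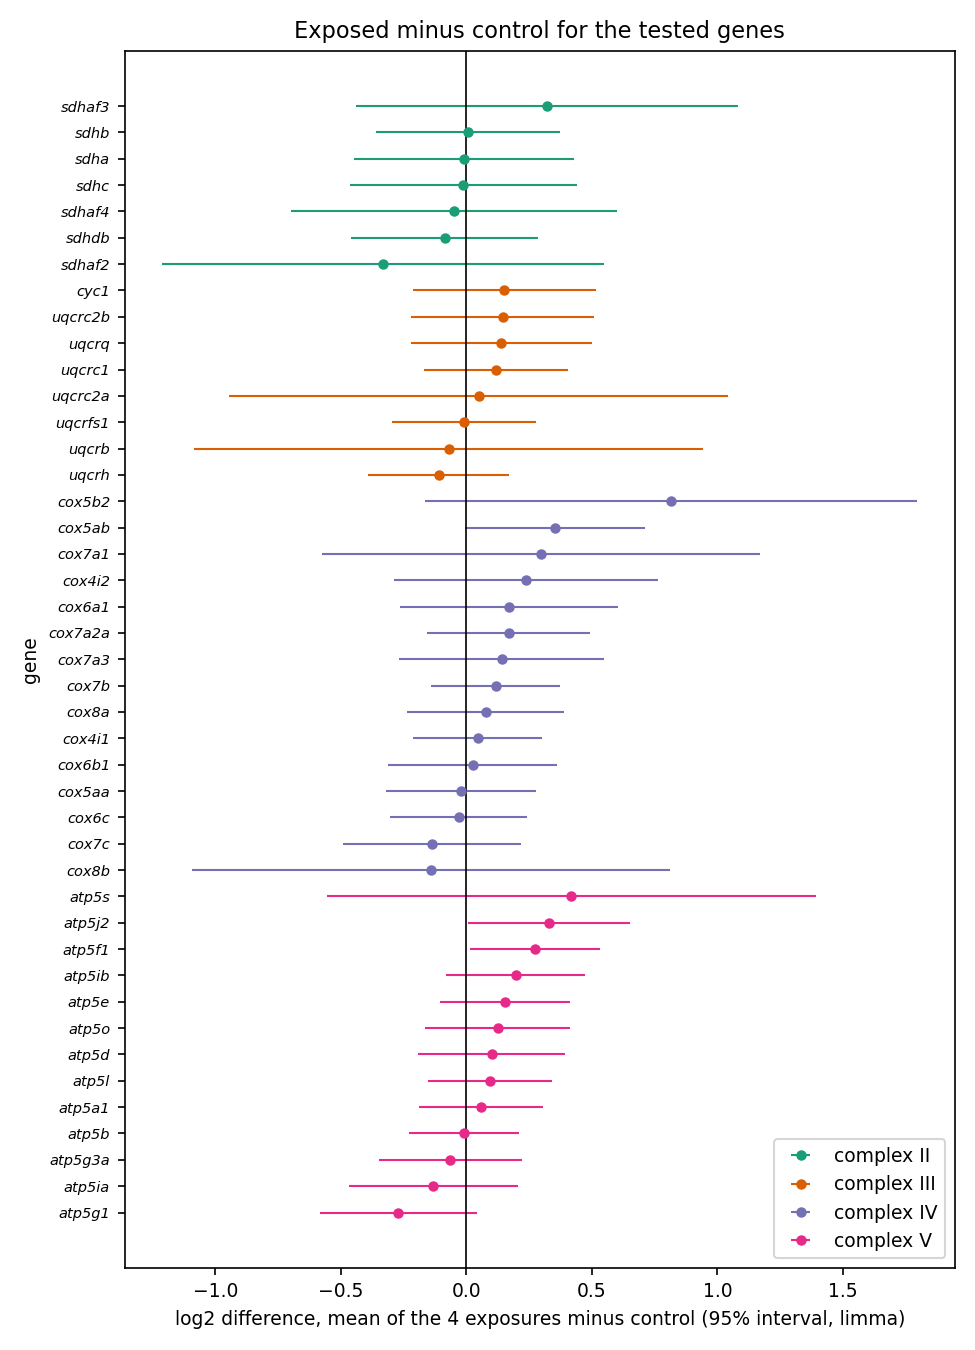
Log2 difference of each of the 43 tested genes, mean of the 4 exposures minus control, on the log2(value + 0.5) scale (x axis), with 95% intervals from limma, ordered by complex down the page. The intervals of atp5f1 and atp5j2 lie just above 0 and those of the other 41 genes include 0.

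For the 33 genes with a mean normalised value above 30, the 95% intervals in the mean of the exposures spanned -0.58 (lower end, atp5g1) to 0.71 (upper end, cox5ab) on the log2 scale, with a median half-width of 0.31. For all 43, they spanned -1.21 (sdhaf2) to 1.80 (cox5b2). Values are normalised by the trimmed mean of M values (TMM) and not divided by transcript length, so they are compared between pools and not between genes.

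Among the catalytic subunits of complex II, sdhb, the iron-sulfur subunit, differed most between concentrations. Its normalised values were 44.0, 35.8 and 37.0 in control pools a to c, 31.4, 34.6, 35.3 and 44.2 in the 0.5 mg/L pools, 30.7, 27.9, 28.8 and 42.97 in the 1 mg/L pools, 47.1, 43.8, 63.5 and 46.8 in the 2 mg/L pools, and 38.1, 41.6, 44.0 and 36.3 in the 10 mg/L pools. Of the pools at 2 mg/L, 3 exceeded every control pool, while 3 of the pools at 1 mg/L were below them. The test among the 4 exposures gave an adjusted p of 0.964 for sdhb. The log2 difference was -0.27 ± 0.24 (SE) for the 1 mg/L pools and 0.36 ± 0.21 for the 2 mg/L pools, and the mean over the exposures was 0.01 ± 0.18 (adjusted p = 0.999).

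The flavoprotein subunit sdha averaged 32.0 ± 8.22 (SD, n = 16) in exposed pools and 31.3 ± 2.95 (n = 3) in control pools. The membrane anchor sdhc averaged 31.9 ± 9.50 in exposed pools and 30.9 ± 1.62 in control pools. The other anchor, sdhdb, was between 27.3 and 33.9 in all pools at 0.5 mg/L, below the 35.8 to 37.7 of the control pools, with a log2 difference of -0.26 ± 0.23 (adjusted p = 0.894). At 1 and 10 mg/L the sdhdb pools lay on both sides of the control pools.

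The assembly factors of complex II had few reads. sdhaf3, which takes part in the maturation of the iron-sulfur subunit, was at 9.91, 10.9, 9.50 and 12.8 at 0.5 mg/L, above the 8.51, 4.59 and 7.08 of control pools a to c. These values rest on 39 reads at 0.5 mg/L and 26 reads in the control pools, and the log2 difference was 0.67 ± 0.41 (adjusted p = 0.838). At 10 mg/L, sdhaf3 averaged 5.18 ± 2.25 (SD, n = 4), where 0 pools exceeded every control pool. sdhaf2, required for attaching the flavin to sdha, was at 10.6, 5.51 and 9.44 in control pools a to c, 9.91, 3.64, 13.6 and 5.13 in the 0.5 mg/L pools, 1.92, 6.98, 12.98 and 7.39 in the 1 mg/L pools, 2.24, 5.47, 13.9 and 6.75 in the 2 mg/L pools, and 7.09, 10.4, 5.24 and 4.84 in the 10 mg/L pools. Of the exposed pools, 3 were above and 7 below all control pools. Its log2 difference of -0.33 ± 0.44 in the mean of the exposures was smaller than its error.

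In complex III, cyc1 encodes cytochrome c1, the subunit that hands electrons to cytochrome c. Its values were 133, 104 and 109 in control pools a to c, 379.8, 122, 134 and 107 in the 0.5 mg/L pools, 99.8, 89.0, 114 and 119 in the 1 mg/L pools, 119.9, 115, 139 and 110.4 in the 2 mg/L pools, and 137, 134, 137 and 106 in the 10 mg/L pools. Pool a at 0.5 mg/L, with 230 reads of cyc1, stood far above the other pools. The log2 difference at 0.5 mg/L was 0.49 ± 0.24 (adjusted p = 0.799) with that pool and 0.08 without it.

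uqcrc1, a core protein of complex III, averaged 97.0 ± 8.20 (SD, n = 16) in exposed pools and 90.8 ± 20.6 (n = 3) in control pools. The exposed pools lay between 81.3 and 109.6, whereas control pool b was at 67.1 and control pools a and c at 101 and 105. The log2 difference in the mean of the exposures was 0.12 ± 0.14, and -0.09 without control pool b. The other genes of complex III with a mean above 30 lay between -0.11 ± 0.14 (uqcrh, the hinge protein) and 0.14 ± 0.18 (uqcrc2b, the second core protein). The Rieske iron-sulfur subunit uqcrfs1 had a log2 difference of -0.01 ± 0.14.

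In complex IV, cox5ab, a paralog of the nuclear subunit 5A, had the largest log2 difference among the genes with a mean above 30. Its values were 80.8, 34.9 and 83.4 in control pools a to c, 84.2, 61.9, 74.6 and 97.5 in the 0.5 mg/L pools, 51.8, 71.6, 88.0 and 73.9 in the 1 mg/L pools, 86.3, 83.9, 92.9 and 79.6 in the 2 mg/L pools, and 92.2, 91.8, 88.1 and 62.9 in the 10 mg/L pools. Control pool b was the lowest of all 19 pools, and 9 of the 16 exposed pools exceeded every control pool. The log2 difference was 0.47 ± 0.21 at 2 mg/L (adjusted p = 0.912) and 0.35 ± 0.18 in the mean of the exposures (adjusted p = 0.980). Without control pool b it was 0.06 at 2 mg/L and -0.06 in the mean of the exposures.

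cox4i1, the main form of subunit 4, was at 267, 229 and 248 in control pools a to c, 254, 264, 293 and 252 in the 0.5 mg/L pools, 192, 258, 249 and 266 in the 1 mg/L pools, 284, 239, 279 and 225 in the 2 mg/L pools, and 295, 307, 277 and 189 in the 10 mg/L pools. Of the exposed pools, 6 were above and 3 below all control pools. Its log2 difference in the mean of the exposures was 0.05 ± 0.13. cox5b2, a paralog of subunit 5B, had the largest point estimate of all 43 genes, 0.81 ± 0.49 on the log2 scale (adjusted p = 0.980). Its values were 2.84, 0.460 and 3.15 in control pools a to c, 4.95, 1.82, 6.78 and 6.41 in the 0.5 mg/L pools, 1.92, 0.873, 2.88 and 2.31 in the 1 mg/L pools, 3.36, 1.82, 10.8 and 4.82 in the 2 mg/L pools, and 2.66, 6.62, 5.24 and 2.42 in the 10 mg/L pools. It rested on 64 reads in the exposed pools and 8 reads in the control pools, of which control pool b had 0. Without that pool the difference was 0.19. Pool b at 1 mg/L also had 0 reads, so its 0.873, like the 0.460 of control pool b, stands for 0.5 reads. Several other exposed pools had 1 read.

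cox6a1, subunit 6A, reached 543 in pool a at 1 mg/L and 319.8 in pool b at 10 mg/L, while its other exposed pools lay between 119 and 180.4 and its control pools between 117 and 177. Its log2 difference was 0.36 ± 0.28 for the 1 mg/L pools and 0.27 ± 0.22 for the 10 mg/L pools. cox7c, subunit 7C, was between 106 and 271 in the exposed pools and at 352, 120.4 and 185 in control pools a to c. Its log2 difference in the mean of the exposures was -0.14 ± 0.18, and 0.28 without control pool a. The high values of cyc1, cox6a1 and cox7c each fell in a different pool.

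cox8a, subunit 8A, was between 178 and 215 at 0.5 mg/L and between 111 and 159 at 1 mg/L, against 104.8 to 213 in the control pools. Its log2 difference was 0.31 ± 0.18 at 0.5 mg/L (adjusted p = 0.834) and -0.14 ± 0.20 at 1 mg/L (adjusted p = 0.998). The remaining subunits of complex IV with a mean above 30 had log2 differences between -0.03 (cox6c) and 0.17 (cox7a2a) in the mean of the exposures.

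In complex V, the nominal differences were those of 2 genes, atp5f1 and atp5j2. The other tested genes of the membrane part had log2 differences from -0.27 (atp5g1) to 0.20 (atp5ib) in the mean of the exposures. atp5f1 encodes subunit b of the peripheral stalk, which holds the catalytic head still against rotation. Its values were 349.5, 268 and 243 in control pools a to c, 368, 384, 392 and 296 in the 0.5 mg/L pools, 347, 342, 401 and 226 in the 1 mg/L pools, 342, 325, 369 and 293 in the 2 mg/L pools, and 373, 394, 362 and 319 in the 10 mg/L pools. Of the 16 exposed pools, 8 exceeded every control pool and 1 was below them. Exposed pools averaged 346 ± 46.1 (SD, n = 16) and control pools 287 ± 55.7 (n = 3). The log2 difference was 0.34 ± 0.16 at 0.5 mg/L, 0.35 ± 0.16 at 10 mg/L and 0.27 ± 0.13 in the mean of the exposures (adjusted p = 0.799, 0.967 and 0.980). Leaving out 1 pool at a time, the mean of the exposures lay between 0.16, without control pool c, and 0.42, without control pool a.

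atp5j2 encodes subunit f of the membrane part. Its values were 230.4, 121 and 199.7 in control pools a to c, 271, 202, 415 and 205 in the 0.5 mg/L pools, 248, 189, 205 and 151 in the 1 mg/L pools, 236, 239, 232 and 195 in the 2 mg/L pools, and 231, 262, 238 and 152 in the 10 mg/L pools. Control pool b was the lowest of all pools and pool c at 0.5 mg/L the highest, and both enter the comparison at 0.5 mg/L. That log2 difference was 0.56 ± 0.20 (adjusted p = 0.786), 0.33 without pool c at 0.5 mg/L and 0.28 without control pool b. Without control pool a it was 0.74 and passed the threshold (adjusted p = 0.0626), as did 46 of the 6933 genes tested. In the mean of the exposures it was 0.33 ± 0.16 (adjusted p = 0.980), and 0.06 without control pool b.

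**Figure D2:**
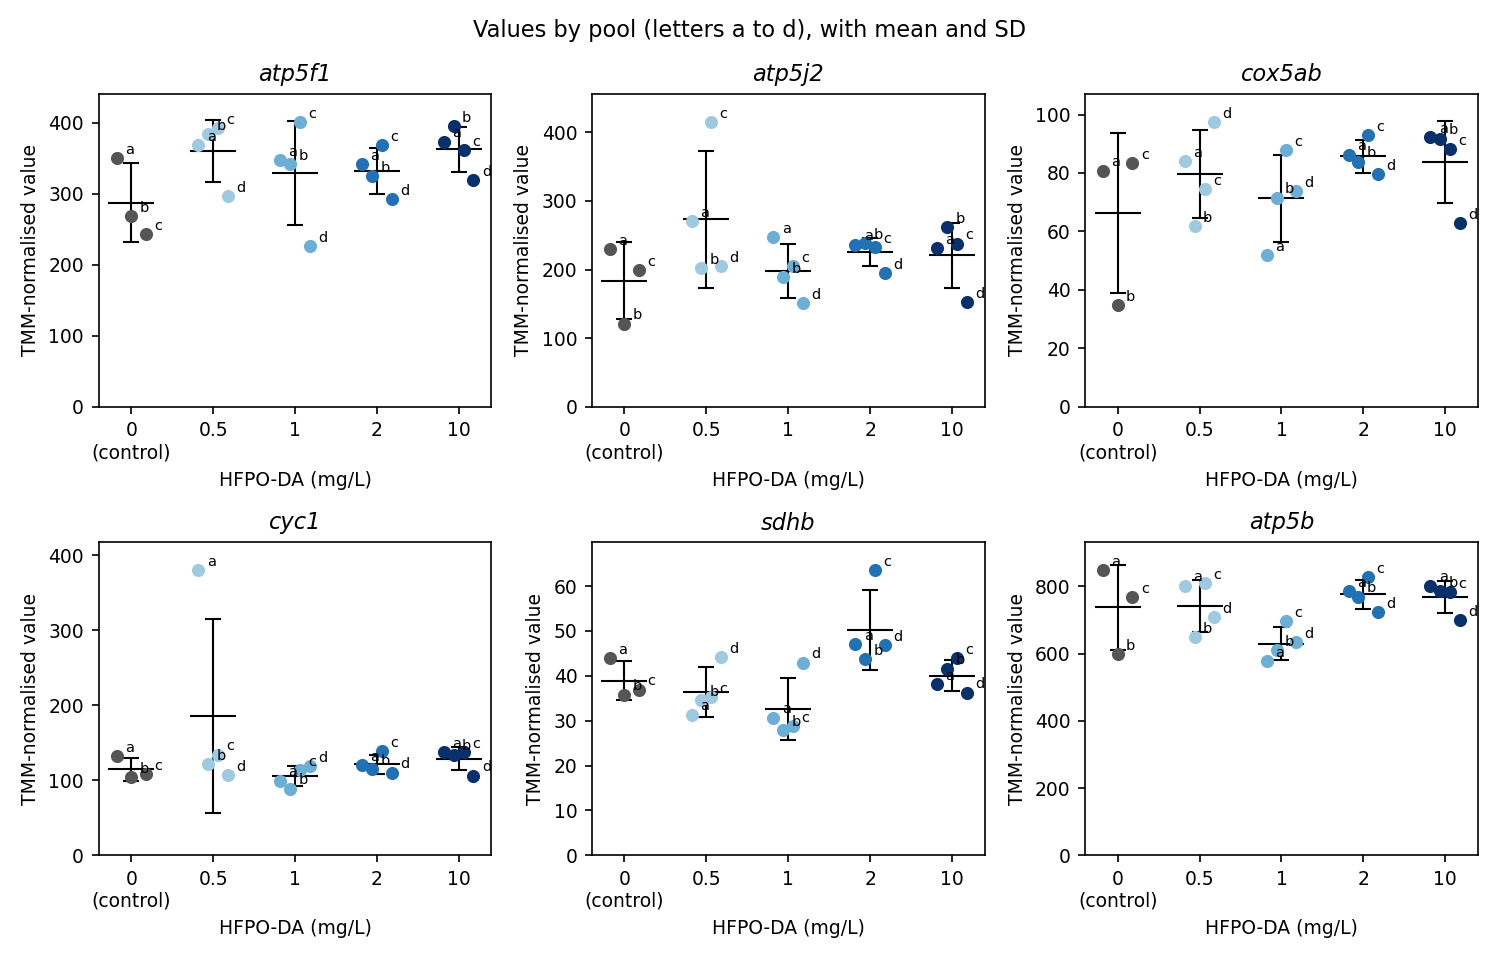
TMM-normalised value (y axis) of atp5f1, atp5j2, cox5ab, cyc1, sdhb and atp5b in each pool (points, letters a to d) by HFPO-DA concentration (x axis), with the mean and SD of each group. Single pools set the extremes, as 379.8 for cyc1 in pool a at 0.5 mg/L and 34.9 for cox5ab in control pool b.

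Several genes of the catalytic head and of the stalks had smaller differences. atp5b, the beta subunit that makes ATP, averaged 729 ± 78.6 (SD, n = 16) in exposed pools and 738 ± 127 (n = 3) in control pools, with a log2 difference of -0.01 ± 0.11. At 1 mg/L it was at 578, 611, 696 and 635 in pools a to d, within the 598 to 847 of the control pools in 3 of 4 pools. atp5a1, the alpha subunit, averaged 325 ± 35.4 in exposed pools and 314 ± 55.6 in control pools. The central stalk genes atp5d and atp5e and the peripheral stalk gene atp5o had log2 differences of 0.10 ± 0.15, 0.15 ± 0.13 and 0.12 ± 0.14 in the mean of the exposures.

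The most negative value among the genes with a mean above 30 was that of atp5g1, which encodes the c-ring subunit, at -0.27 ± 0.16 in the mean of the exposures (adjusted p = 0.980). The exposed pools ranged from 140.3 to 211, while the control pools were at 355, 148 and 169. Control pool a was the highest of all pools, and without it the log2 difference was 0.12. The paralog atp5g3a, which in mammals gives the same mature protein, was at 132, 131, 113 and 135 at 2 mg/L. Control pools a to c were at 160.2, 143 and 136, and the log2 difference was -0.20 ± 0.16 (adjusted p = 0.931). At 0.5, 1 and 10 mg/L, atp5g3a averaged 156.7, 135.2 and 147.4, against 146.5 in the control pools.

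Few genes had all pools of an exposure on the same side of the control pools, that is, every pool above the highest or every pool below the lowest control pool. At 0.5 mg/L, 3 of 43 did (sdhaf3 above, sdhdb and atp5ia below), against 6.49% of all genes tested. At 1 mg/L, 0 did, against 5.16%. At 2 mg/L, 4 did (cox4i2 and cox7a1 above, atp5g3a and atp5ia below), against 5.51%, and at 10 mg/L, 0 did, against 5.77%. Over all 16 exposed pools, 0 of 43 did, against 0.202% of all genes. A further 3, 7, 2 and 4 genes from the lowest to the highest concentration had no pool inside the control range but had pools on both sides of it. Over all 16 exposed pools this held for cox4i2 alone, with 12 pools above and 4 below the control pools.

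Several subunits are encoded by a pair of paralogs, and the ratio within a pool removes what both share with the pool. The log2 ratio of cox5ab to cox5aa averaged -0.44 ± 0.27 (SD, n = 16) in exposed pools and -0.82 ± 0.40 (n = 3) in control pools. Of the exposed pools, 11 exceeded every control pool and 0 were below them, and control pool b was the lowest of all at -1.26. The difference of 0.37 was below the SD of the control pools, and without control pool b it was 0.15, with 11 exposed pools above and 4 below the remaining control pools. cox5aa itself had a log2 difference of -0.02 ± 0.15.

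The 2 genes for subunit e of ATP synthase, atp5ia and atp5ib, had a ratio that was lower in exposed pools. The log2 ratio of atp5ia to atp5ib averaged -1.52 ± 0.31 in exposed pools and -1.19 ± 0.26 in control pools, with 9 exposed pools below all control pools and 1 above. The difference of -0.33 exceeded the SD of the control pools in size. It was -0.48 without control pool a and -0.27 without control pool c. Without control pool b it was -0.24, smaller in size than that SD. atp5ia was between 49.1 and 57.8 at 0.5 mg/L and between 42.0 and 59.4 at 2 mg/L, against 59.7 to 65.9 in the control pools. Its log2 difference was -0.21 ± 0.19 for the 0.5 mg/L pools and -0.32 ± 0.20 for the 2 mg/L pools (adjusted p = 0.895 and 0.912). At 1 mg/L, 3 atp5ia pools were above and 1 below all control pools, with a log2 difference of 0.09 ± 0.20. At 10 mg/L, 1 was above and 2 were below, with a log2 difference of -0.09 ± 0.20. atp5ib averaged 167 ± 19.6 in exposed pools and 147 ± 34.8 in control pools.

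cox4i2, the form of subunit 4 that responds to low oxygen in mammals, was between 16.4 and 21.7 at 2 mg/L, above the 13.4 to 14.2 of the control pools. Its log2 ratio to cox4i1 averaged -3.93 ± 0.42 in exposed pools and -4.12 ± 0.10 in control pools, with 9 exposed pools above and 6 below all control pools. The difference of 0.19 exceeded the SD of the control pools but not that of the exposed pools. It was between 0.16 and 0.25 with 1 control pool left out. The control values of cox4i2 rest on 20, 15 and 17 reads in pools a to c, so their narrow spread says little about the error of the ratio. cox7a1, a muscle form of subunit 7A in mammals, was between 5.47 and 11.2 at 2 mg/L, above the 3.68 to 4.96 of the control pools. These values rest on 33 and 16 reads. At 10 mg/L, cox7a1 averaged 4.06, against 4.19 in control pools, with 0 pools above and 2 below all control pools. At 0.5 and 1 mg/L, its pools lay on both sides of the control pools.

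In 5 further pairs, the ratio in exposed pools differed from that in control pools by less than the SD of the control pools. The difference in mean log2 ratio was 0.21 for atp5g3a over atp5g1, 0.13 for cox7a1 over cox7a2a, -0.03 for cox7a3 over cox7a2a, -0.22 for cox8b over cox8a and -0.10 for uqcrc2a over uqcrc2b. No ratio was tested, and whether cox7a3, now named cox7a2l, encodes a form of the same subunit as cox7a2a was not checked. Reads that align equally well to both members of a pair are not counted under the counting defaults used, so values of near-identical paralogs are uncertain.

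**Figure D3:**
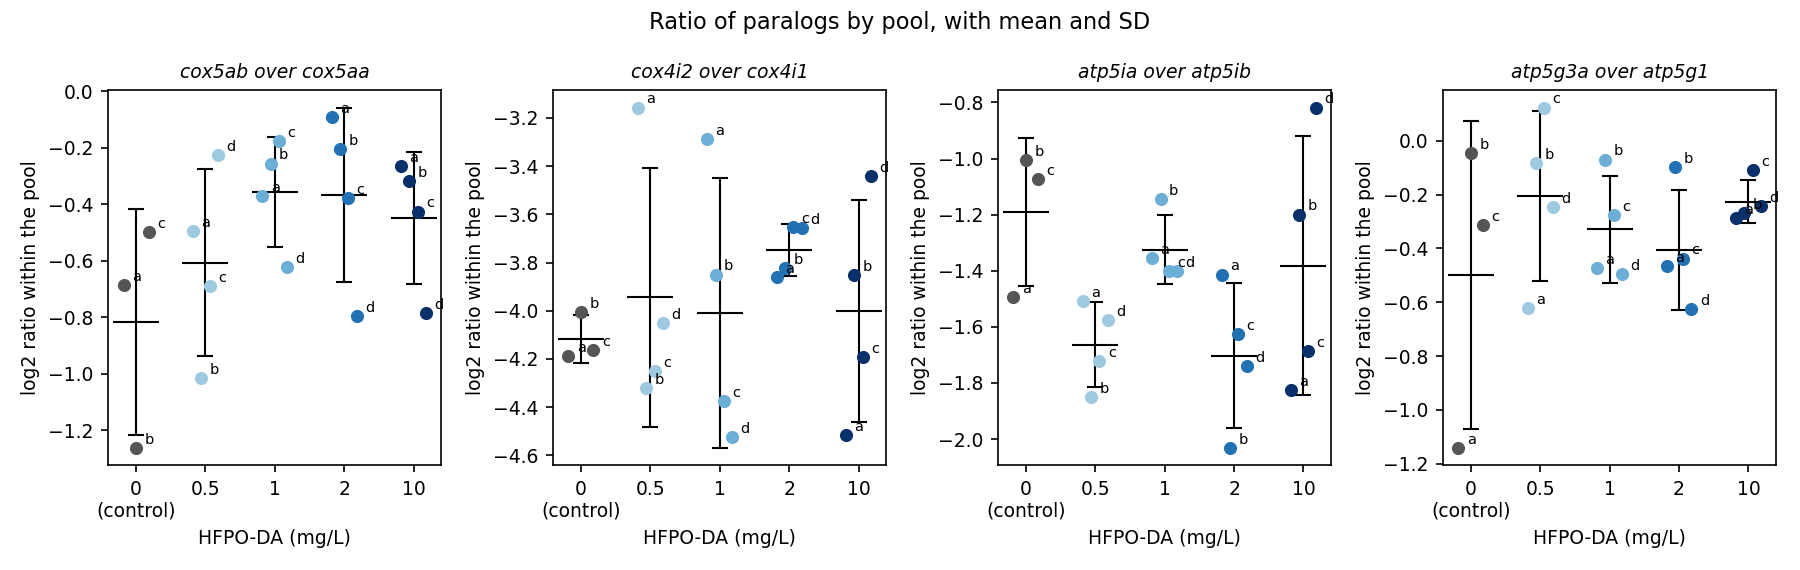
Log2 ratio within a pool (y axis) of cox5ab to cox5aa, cox4i2 to cox4i1, atp5ia to atp5ib and atp5g3a to atp5g1 by HFPO-DA concentration (x axis), with letters for pools and the mean and SD of each group. For cox5ab over cox5aa, 11 of 16 exposed pools lie above all control pools, and for atp5ia over atp5ib, 9 lie below.

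The level of the complexes also varied between pools of one group. For each pool, the level of a complex was taken as the median over its tested genes of the log2 deviation from the gene's mean over the 19 pools. The level of all 43 genes was 0.12, -0.31 and -0.04 in control pools a to c. It was 0.10, -0.07, 0.16 and 0.04 in the 0.5 mg/L pools, -0.24, -0.19, 0.01 and -0.05 in the 1 mg/L pools, 0.05, 0.04, 0.11 and 0.07 in the 2 mg/L pools, and 0.07, 0.19, 0.12 and -0.20 in the 10 mg/L pools. The control pools covered a wider range than any exposure, and 3 of 4 pools at 1 mg/L were below 0 while all pools at 2 mg/L were above it.

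**Figure D4:**
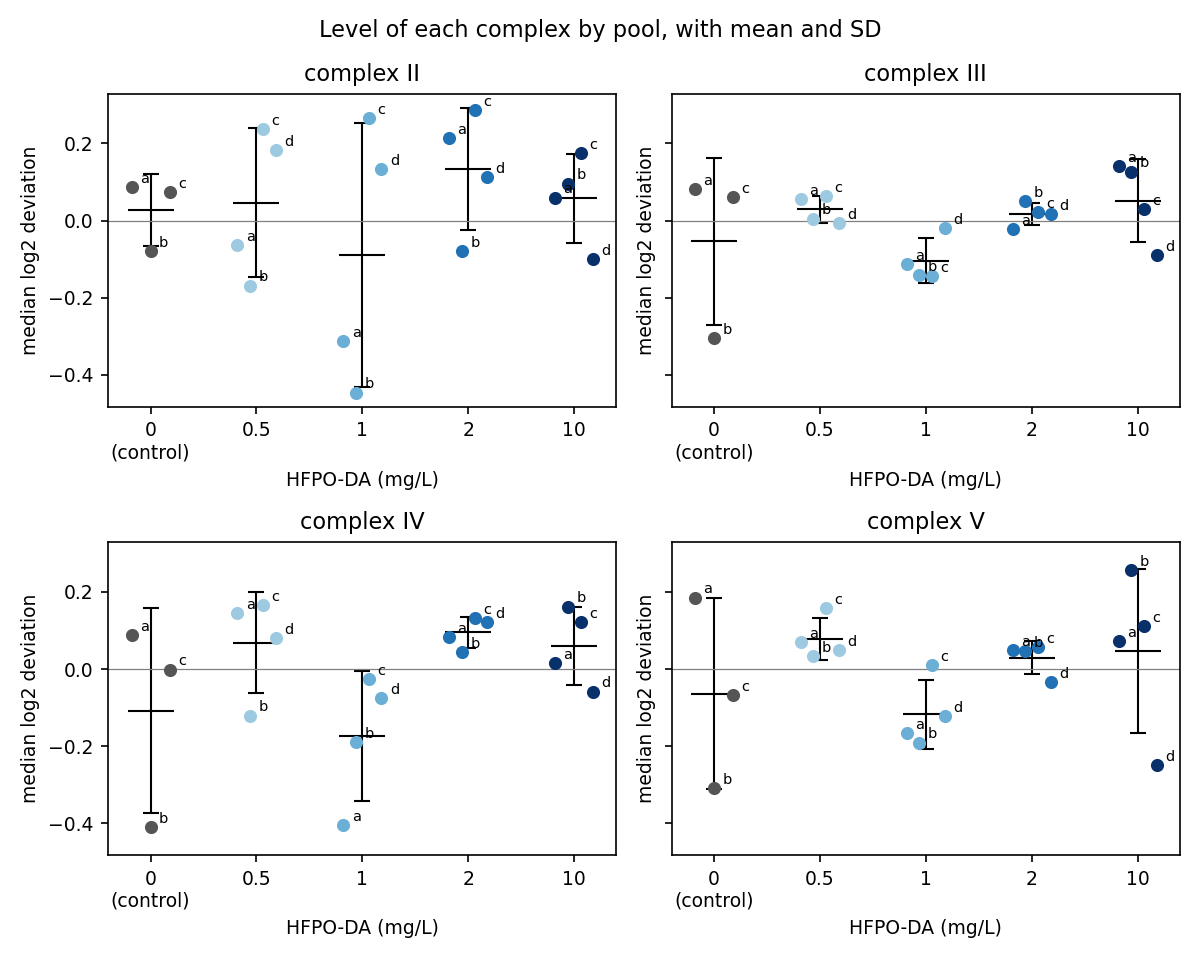
Median log2 deviation over the tested genes of complexes II, III, IV and V (y axis) in each pool by HFPO-DA concentration (x axis), with letters for pools and the mean and SD of each group. Control pool b lies lowest in complexes III, IV and V and at -0.08 in complex II.

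In control pool b the level was -0.30 for complex III, -0.41 for complex IV and -0.31 for complex V, but -0.08 for complex II. Complex II had its lowest levels at 1 mg/L, -0.31 in pool a and -0.45 in pool b. Averaged over 1 mg/L, the level was -0.09 ± 0.34 (SD, n = 4) for complex II, -0.10 ± 0.06 for complex III, -0.17 ± 0.17 for complex IV and -0.12 ± 0.09 for complex V. The control pools averaged 0.03 ± 0.09 (n = 3), -0.05 ± 0.22, -0.11 ± 0.27 and -0.06 ± 0.25 for complexes II, III, IV and V, so the level at 1 mg/L was within 1 SD of control for complexes III, IV and V.

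Some other gene groups were also low in control pool b. Complex I was at -0.35 in control pool b and 0.22 in control pool a, and ribosomal protein genes were at -0.31 and 0.03 in the same pools. The summed value of fast skeletal muscle markers ranged from 20680 to 29360 (median 27170) over exposed pools and from 18520 to 27180 over control pools, lowest in control pool b. Of the other marker lists, only liver and yolk and erythrocyte markers were also lowest of the control pools in control pool b. Liver and yolk markers summed to 232.5 there, the lowest of all 19 pools, and erythrocyte markers to 173.7. Heart markers summed to 148.9 in control pool b, the highest of the control pools, and slow muscle markers to 168.2, the middle of the control pools. Neuron markers summed to 1269 there, the highest of all 19 pools. The 5 pools with the lowest sum of all values, among them control pool b and pool d at 10 mg/L, were the same 5 that had the lowest level of the 43 genes. The part of muscle content, or of the sum that the normalisation leaves, in these levels was not tested. In whole embryos, fewer cells of a type and less RNA per cell cannot be told apart.

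**Figure D5:**
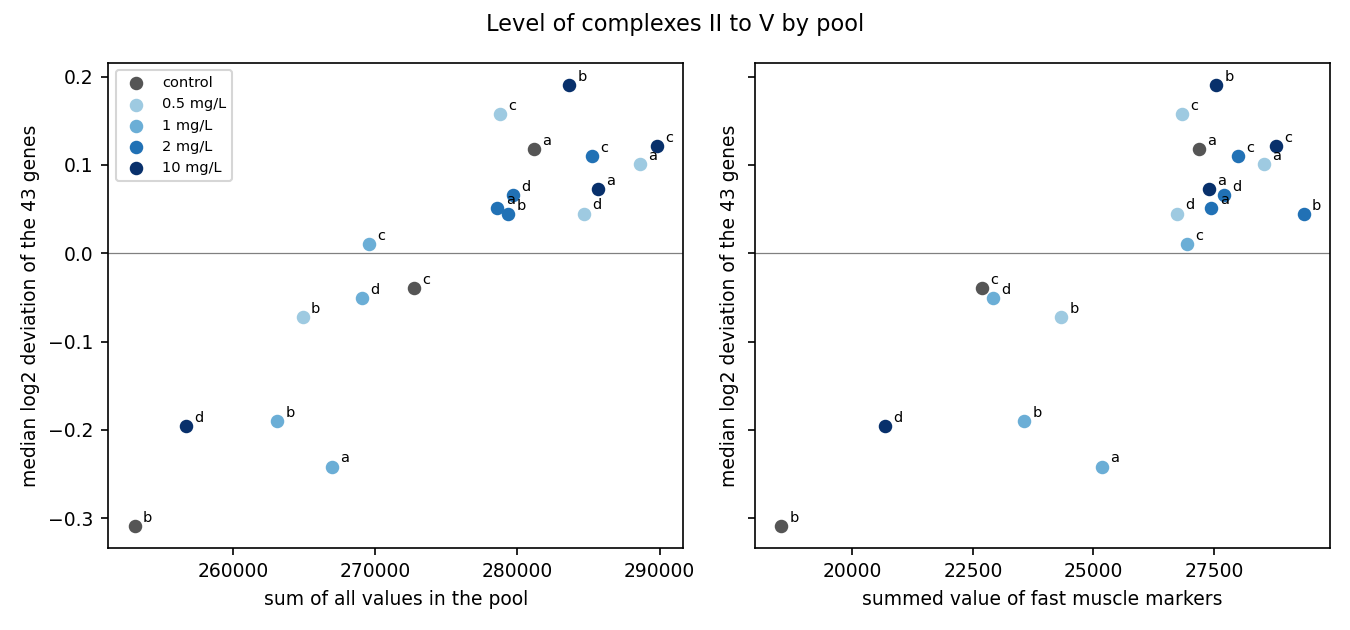
Median log2 deviation of the 43 genes (y axis) against the sum of all normalised values of the pool (left) and the summed value of fast skeletal muscle markers (right), 1 point per pool, coloured by concentration, with pool letters. The 5 pools with the lowest sum have the 5 lowest levels, whereas the order by muscle markers differs, as for pool a at 1 mg/L, with the second lowest level (-0.24) and only the seventh lowest muscle sum.

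With values rescaled to CPM (counts scaled to a common total), the median log2 difference in the mean of the exposures was 0.04 with 24 of 43 genes above 0, and the median of all genes was -0.10. With quantile normalisation, the medians were 0.12 and -0.01.

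Genes that serve the same complexes were read in the mean of the exposures, where 43.2% of all genes tested were above 0. Of 34 tested genes of complex I, the NADH dehydrogenase that feeds the same chain, 0 were called, 25 were above 0 and the median log2 difference was 0.09. Control pool b, with the lowest level of complex I of all pools (-0.35), enters this median. Of 29 tested assembly factors (43 symbols sought), which include sdhaf2, sdhaf3 and sdhaf4, 0 were called, 10 were above 0 and the median was -0.06. The lowest of those with a mean above 10 was oxa1l, which inserts proteins into the inner membrane, at 11.9 ± 3.65 (SD, n = 16) in exposed pools and 17.3 ± 0.965 (n = 3) in control pools, a log2 difference of -0.58 (adjusted p = 0.980). The next was coa7, a complex IV assembly factor, at 16.3 ± 5.10 in exposed pools and 22.5 ± 8.22 in control pools.

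Of 12 tested genes of mobile carriers and coenzyme Q synthesis (21 symbols sought), 0 were called, 3 were above 0 and the median was -0.09. cycsb, the cytochrome c that carries electrons between complexes III and IV, averaged 278 ± 26.8 in exposed pools and 257 ± 17.4 in control pools. The ATP synthase inhibitors atpif1a and atpif1b had log2 differences of 0.10 and 0.13. The porins vdac1 and vdac2 of the outer membrane differed by -0.28 and 0.18. Of 17 symbols sought for regulators of mitochondrial biogenesis, only 5 were among the genes listed and 4 could be tested. Of these 4, 0 were called, 3 were above 0 and the median was 0.14. tfam, which packages and transcribes mitochondrial DNA, averaged 30.7 ± 4.75 in exposed pools and 27.5 ± 6.64 in control pools. Its log2 difference was 0.17 (adjusted p = 0.980), and that of yy1a was -0.17 (adjusted p = 0.980).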

How the data were processed

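Barcoded oligo-dT libraries of polyadenylated RNA were sequenced by the authors at low depth. The submitters' processing notes and the study's methods name UMI-tools 1.1.2 (duplicate removal), Trimmomatic 0.40, STAR and HTSeq 0.13.5 with default settings. The methods give genome build GRCz10, and the notes also list GRCz11. The deposited values are a normalised signal: read counts per gene scaled by the authors with TMM, with zeros replaced. The smallest value of each pool equals 0.5 reads and 100% of the other values are whole multiples of 1 read (tolerance 0.01 reads), so whole reads were recovered. Sums of values differed between pools (253079 to 289824). Columns of values that match no sample numbered 0.

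Genes with a mean above 2.75 CPM of recovered reads over the 19 pools were tested (6933 genes). The cut-off had been written without its unit, and a mean deposited value above 2.75 (5329 genes) was tried after seeing the data. limma 3.58.1 in R 4.3.3 (lmFit, eBayes with trend, two-sided) was fitted to log2(value + 0.5), so differences of low genes are understated. Each pairwise fit used only its 2 groups, and the mean of the exposures and the test among exposures used all 5 groups. A gene was called at a Benjamini-Hochberg adjusted p under 0.1. The noiseqbio function of the study was not used here. The fits were run on simulated reads with a fixed dispersion that was not estimated from these pools. There, limma recovered 16.4% to 23.9% of well-covered genes changed 1.5-fold in the pairwise fits, and 34.3% in the mean of the exposures. The share that would be recovered at the spread of the real pools was not measured. Whether pools came from separate clutches is not stated, so p-values measure the spread between these pools.

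The genes given by pool or by group were, per complex, the 2 with the smallest p in the mean of the exposures, the one with the highest mean value, those with an unadjusted p under 0.05 in that contrast or in at least 2 pairwise comparisons, and paralogs of 1 subunit. cox6a1, cox7c, atp5l, oxa1l, coa7 and other genes were named after their values were seen. The genes and lists were chosen with earlier results of these data known. All 45 symbols matched RefSeq, 31 as current symbols and 14 as synonyms (for example atp5f1, now atp5pb, and atp5j2, now atp5mf). Alternatives were other pseudocounts, filters and scalings, edgeR 4.0.16, DESeq2 1.42.0, a replicate block and leaving out each pool.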

Additional observations from a re-analysis of the deposited data

Results flagged for a closer look

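In 208 groups of 4 pools (the 43 tested genes, their median level and 8 paralog ratios at each concentration), 17 held a pool far from the other 3 by Dixon's ratio, where chance gives about 5%. High single pools were cyc1 at 379.8 in pool a at 0.5 mg/L (others 107 to 134), cox6a1 at 543 in pool a at 1 mg/L (others 119 to 152) and 319.8 in pool b at 10 mg/L (others 139 to 149.8), cox8a at 219 in pool d at 2 mg/L (others 149 to 161) and sdhb at 63.5 in pool c at 2 mg/L (others 43.8 to 47.1). Of the genes with fewer reads, cox4i2 was at 28.1 in pool a at 0.5 mg/L (others 12.7 to 14.9), cox7a3 at 34.6 in pool b at 0.5 mg/L (others 28.1 to 28.9) and uqcrb at 6.75 in pool d at 2 mg/L (others 3.10 to 3.65).

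Low single pools at 2 mg/L were atp5a1 at 276 in pool a (others 332 to 339), atp5g3a at 113 in pool c (others 131 to 135), atp5j2 at 194.8 in pool d (others 232 to 239) and uqcrfs1 at 112 in pool d (others 135 to 136). At 1 mg/L, atp5g3a was at 113.2 in pool a (others 139.7 to 145). At 10 mg/L, cox5ab was at 62.9 (others 88.1 to 92.2) and cyc1 at 106 (others 134 to 137), both in pool d, sdhdb at 28.4 in pool b (others 38.7 to 39.9) and uqcrh at 93.3 in pool c (others 109 to 111).

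For 2 genes every pool at 0.5 mg/L was above the control mean and every pool at 1 mg/L below it. The log2 difference of cox8a was 0.31 for the 0.5 mg/L pools and -0.14 for the 1 mg/L pools, and that of atp5l, subunit g of ATP synthase, was 0.20 and -0.079 for the same concentrations. The difference between these concentrations was not tested by itself. All 16 exposed pools of atp5l, and 13 of 16 for cox8a, lay within the range of the control pools. The limma test among all 4 exposures gave an adjusted p of 0.964 for cox8a and 0.964 for atp5l.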

How the results depend on the processing

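The count of 0 called genes held under 18 of 20 alternatives at 0.5 mg/L, all 20 at each of 1, 2 and 10 mg/L, all 31 in the mean of the exposures and all 28 among the exposures. The exceptions at 0.5 mg/L were the replicate block and leaving out control pool a. The block called 2 genes (atp5j2, log2 difference 0.67, adjusted p = 0.0406, and cyc1, 0.68, adjusted p = 0.0532), against 29 of the 6933 genes tested. Leaving out pools gave counts from 0 to 1 (1 without control pool a, against 46 of 6933). Pairing by the shared letters was not taken as given, since only 1 of 12 correlations was above 0.1. These were correlations of deviations between a control pool and each exposed pool of its letter, and they lay between -0.16 and 0.20. Same-lettered pools of different exposures were not among them. Over all pools, 10 of 19 correlated best with a pool of their own letter, where 25% of the candidate pools shared it. Pairing by letter thus stays unsettled. In the pairwise fits with the block, the d pools had no control partner and carried no weight. Differences near 0 changed sign in the mean of the exposures. atp5b was 0.0054 with edgeR and TMM factors, 0.032 with edgeR and RLE factors, 0.031 with DESeq2, 0.014 with the block and -0.15 to 0.10 when pools were left out. sdhb was -0.034 rescaled to CPM, -0.033 with the block and -0.049 to 0.10 when pools were left out. With pools left out, cox4i1 lay between -0.011 and 0.10, cox5ab between -0.055 and 0.57, and uqcrc1 between -0.086 and 0.23. The median over the 43 genes in the mean of the exposures lay between -0.05 and 0.20 when pools were left out. Counting error was largest for the 10 tested genes with a mean value under 20. The intervals given are per gene and not adjusted for the number of genes tested, so they do not mark what could be called. With 3 control pools, differences beyond an interval's half-width could also go uncalled. An example is atp5j2 at 0.5 mg/L (0.56 ± 0.20, limma adjusted p = 0.786).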
